A study of Mus musculus with 4 samples.

Results

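Departure from additivity asks whether the effect of losing 2 genes together equals the sum of the effects of losing each alone. For every gene it was taken here as the log2 level in the double knockout, minus the level in each single knockout, plus the level in wild type, so that 0 is additivity, a positive value means that the double knockout lay above the sum of both single losses, and a negative value means that it lay below that sum. The value used all 4 arrays of the study. It was available for 22180 genes, each represented by its brightest probe set among 41345, and 12041 of those genes reached a floor of 5.51 log2, the median of all gene values, on at least 1 array. The arrays were Affymetrix whole-transcript mouse arrays hybridised with RNA from sorted bone marrow cells of mice aged 2 months. WT mice carried neither knockout, Fancd2KO mice lacked Fancd2, Foxo3aKO mice lacked Foxo3a (gene symbol Foxo3), and DKO mice lacked both. In every genotype the sort took Lin- c-Kit+ Sca-1+ CD34- cells, a phenotype enriched for long-term haematopoietic stem cells, and these carried the label SLAM although neither CD150 nor CD48 was listed. The sources used here do not give the strain, the knockout alleles or the number of mice and cells behind each array. Each genotype had 1 array, so no value below has a replicate check, and no p-value, standard error or test is given.

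Fancd2 is a core protein of the Fanconi anaemia pathway: once monoubiquitinated at stalled replication forks, it directs the unhooking and repair of DNA interstrand crosslinks, and its loss is known for bone marrow failure. Foxo3a is a forkhead transcription factor held in the cytoplasm by AKT signalling and active in the nucleus when growth factors are scarce, where it is known for maintaining stem cell quiescence and antioxidant defence. Haematopoietic stem cells depend on both, and a cross of the 2 knockouts shows whether a transcript that differs in each single knockout differs by the sum, by more or by less when both genes are absent.

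Fancd2 itself read 6.56 on the WT array, 6.08 on Fancd2KO, 6.67 on Foxo3aKO and 5.84 on DKO, so it was lowest on both arrays labelled as lacking it. Foxo3 read 6.62, 6.72, 6.64 and 6.51 in the same order and was no lower on the Foxo3aKO array than on WT. The position of its probes relative to the deleted part is not known, so this probe set does not check that label, and arrays are named by their labels throughout. Array medians over all probe sets lay between 5.27 and 5.34 log2. The stem cell genes Kit and Procr were well above the floor on every array. Kit, the receptor used in the sort, read 10.67, 10.41, 10.57 and 10.43. Procr, the protein C receptor of long-term stem cells and not part of the gate, read 7.89, 8.03, 7.80 and 8.05. Cd34 read 10.79, 10.28, 9.67 and 10.36 although the gate took CD34-negative cells. Neutrophil genes were also well above the floor, although a lineage-negative gate should remove mature neutrophils. The 22 neutrophil markers had median levels of 10.85, 10.69, 11.58 and 10.49, and Ly6g, the neutrophil surface antigen, read 9.75, 8.40, 10.47 and 7.96. Not all of the 22 mark mature cells only, since Mpo and Ctsg were also listed as progenitor genes. In sorted cells measured in bulk, fewer cells of a type and less RNA per cell cannot be told apart.

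Most genes lay close to additivity. Of the 12041 genes, 11027 (91.6%) were within 2-fold of it, 480 (3.99%) lay at least 2-fold above and 534 (4.43%) at least 2-fold below. The median departure was 0.03 log2, with quartiles of -0.27 and 0.35, and the 2 directions differed more in their extremes than in their counts: 72 genes lay at least 4-fold above and 101 at least 4-fold below. Additivity was also taken on the linear scale, where single effects sum as amounts rather than multiply. Of the 11941 genes with a value there, 800 lay above and 439 below, so the balance of the counts depends on that choice. The other 100 genes had an additive sum that was not positive and so no value. Genes with low mean levels were called more often. In the lowest 3011 genes by mean level 5.94% lay above and 6.64% below, against 2.19% and 3.42% in the highest 3010. Among the 10170 genes that reached the floor on all 4 arrays, 302 lay at least 2-fold above and 341 at least 2-fold below.

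**Figure D1:**
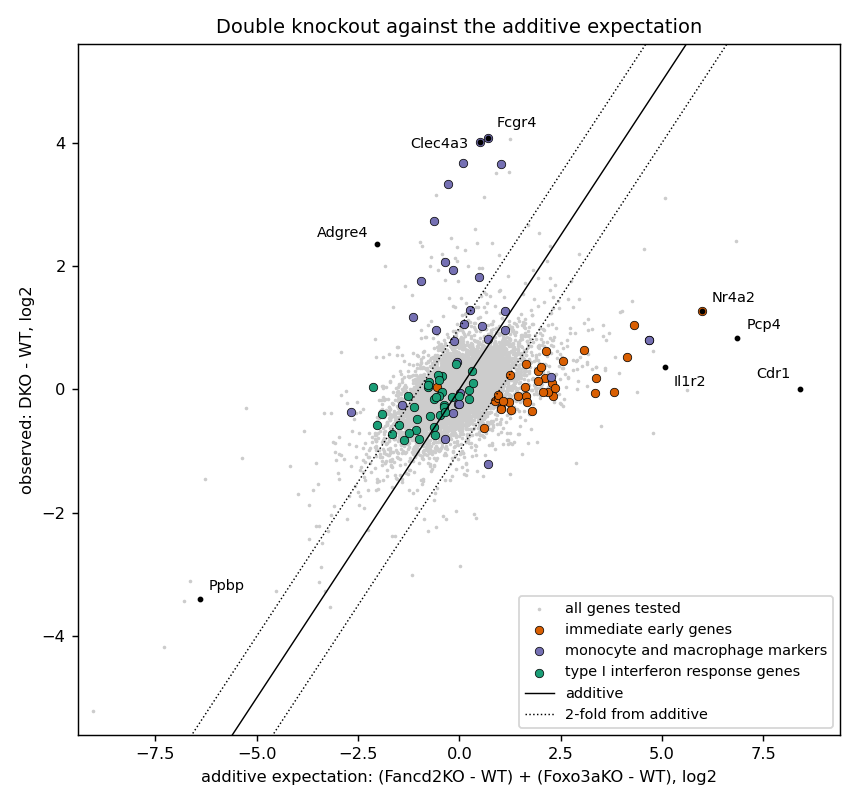
Each point is 1 of the 12041 genes, with the additive expectation relative to WT on the x axis and the observed DKO difference from WT on the y axis, both in log2; the solid line is additivity and the dotted lines lie 2-fold from it. Immediate early genes run to the right near a DKO difference of 0 (median -0.01), monocyte and macrophage markers run upwards (Fcgr4 at 4.08 observed against 0.69 expected), and interferon response genes sit left of the line.

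Sizes of error that single arrays allow were taken from probe sets and controls. In 606 genes with 2 probe sets at the floor, both probe sets of a gene disagreed about its departure by a median of 0.39 log2, and 95% of the disagreements were under 1.33, which is more than the 2-fold threshold of 1. Of 45 such genes called by their brightest probe set, the second probe set had the same sign in 34 and was past 2-fold in 13. Hybridisation controls, 18 spiked probe sets, had a median departure of -0.10 (-0.32 to 0.15), and 92 probe sets for External RNA Controls Consortium (ERCC) spikes had a median of 0.01 (-0.53 to 0.70). The ERCC levels, 2.07 to 4.53 log2, were under the floor, so these probe sets describe departures near background only. Background probe sets, which match no transcript, did not stay at 0: those with 18 to 25 G and C bases had median levels of 6.41, 6.32, 5.88 and 6.49 and a median departure of 0.65, while those with 3 to 10 such bases had 0.01. The part of this GC-linked offset in the positive departures of transcripts was not tested. A batch that set WT and DKO apart from both single knockouts would fall wholly on this contrast, and since the sources used here give no processing dates or batches, it cannot be told apart from a departure.

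**Figure D2:**
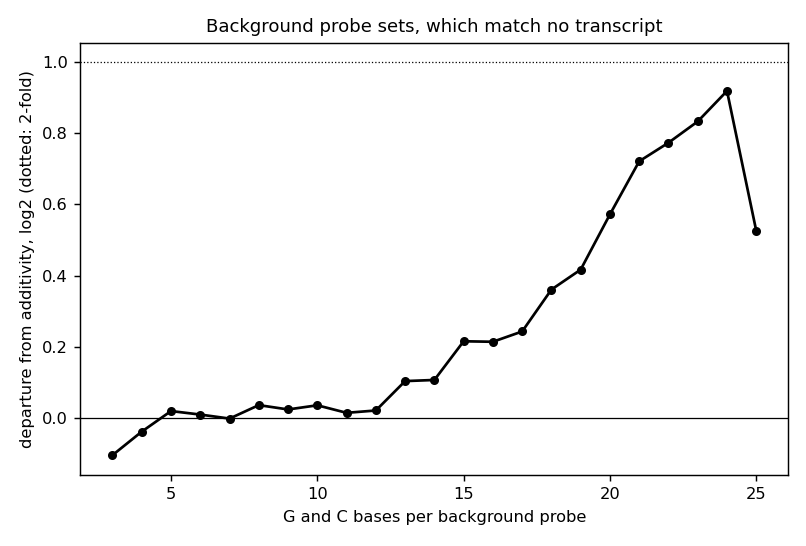
Departure from additivity in log2 (y axis) of background probe sets by the number of G and C bases per probe (x axis), 1 probe set per point, from the 4 arrays. Values stay near 0 up to 12 bases, reach 0.92 at 24 bases and stay under the dotted 2-fold line.

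On a scale where each contrast weighs the 4 arrays equally, the departure was as wide as either main contrast of the layout. Its SD over genes was 0.638 log2, against 0.600 for the contrast of both arrays without Fancd2 with both arrays that carry it, and 0.599 for the same contrast of Foxo3a. The shares of the summed squares over genes were 36.1%, 32.0% and 31.9%. The counts at least 2-fold in either direction were 1014, 891 and 898, and the counts at least 4-fold were 173, 134 and 114. The 3 contrasts are made from the same 4 arrays, and the error of 1 array enters each with equal weight.

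**Figure D3:**
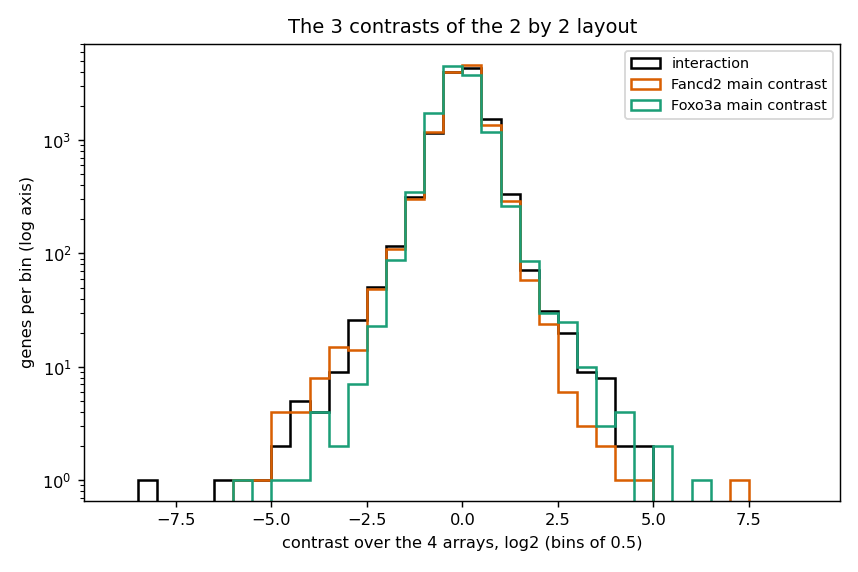
Number of genes (y axis, log scale) by size of each contrast over the 4 arrays (x axis, log2, bins of 0.5) for the departure from additivity and the main contrasts of Fancd2 and Foxo3a. All 3 have similar bodies, and 45, 41 and 29 genes lie at least 8-fold from 0 in the order given.

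The genes past 2-fold fell into a few plain forms when each knockout array was placed at least 1.5-fold above, at least 1.5-fold below or within 1.5-fold of WT. Of the 534 genes below additivity, 148 (27.7%) were higher on both single knockout arrays and near WT on DKO, 98 were higher on Fancd2KO alone and 89 on Foxo3aKO alone, 63 were higher on all 3 knockout arrays, and 29 were lower on DKO alone. Of the 480 above additivity, 119 (24.8%) were lower on both single knockout arrays and near WT on DKO, 75 were lower on Foxo3aKO alone and 61 on Fancd2KO alone, 76 were lower on all 3, and 67 were higher on DKO alone. At this limit the commonest form in each direction was a shared difference of the single knockouts with DKO near WT, and this order depended on the limit. With a 2-fold limit for apart from WT, that form held 22 of the genes above additivity, against 51 with DKO alone higher, 51 with Foxo3aKO alone lower and 271 with no knockout apart. Below additivity it then held 56, against 92 with Fancd2KO alone higher, 81 with Foxo3aKO alone higher and 245 with none apart. Over all 12041 genes, both single knockouts lay above WT and DKO in 14.9% and below both in 18.2%, and DKO was the highest array in 24.4%.

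Genes at least 2-fold from WT in the same direction on both single knockout arrays differed by direction on DKO, with the caution that they were selected on arrays that enter the departure. In 79 genes at least 2-fold higher on both single knockout arrays, the median difference from WT was 1.53 on Fancd2KO, 1.37 on Foxo3aKO and 0.53 on DKO, against an additive 2.96. Of these, 38 were within 1.5-fold of WT on DKO, 22 were at least 2-fold higher there, and 0 reached the additive value. In 60 genes at least 2-fold lower on both, the medians were -1.42, -1.39 and -1.24 against -2.95, 11 of them were within 1.5-fold of WT on DKO, and 38 were at least 2-fold lower there. The DKO median was thus near that of a single knockout where both were lower, and nearer to WT where both were higher. For genes lower on both, the additive value can fall under the floor, where the arrays cannot show it. The part of this limit in the difference between the directions was not tested.

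Immediate early genes, which are transcribed within minutes of a stimulus without new protein synthesis, had the highest share of members past 2-fold in 1 direction of the lists described here. All 36 measured members reached the floor, and 35 (97.2%) lay at least 2-fold below additivity against 4.43% of all genes; 0 lay above. With values under the floor raised to it 34 lay below, and on the linear scale 31. The median departure was -1.77, against 0.03 over all genes. List medians were 8.03 on WT, 9.33 on Fancd2KO, 8.90 on Foxo3aKO and 8.14 on DKO. Relative to WT the median member was higher by 0.98 on Fancd2KO and by 0.88 on Foxo3aKO, and on DKO it differed by -0.01. Both single knockouts lay above WT and DKO, without overlap, in 35 of 36 genes, against 14.9% of all genes. DKO was within 1.5-fold of WT in 30. This list and the others were chosen with earlier results of these data known, so their shares are descriptions only.

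The Nr4a orphan nuclear receptors were among the largest departures of the list. Nr4a1 read 8.23 on WT, 11.05 on Fancd2KO, 10.09 on Foxo3aKO and 9.03 on DKO, a departure of -3.87. Nr4a2 read 6.62, 9.92, 9.31 and 7.89, with a departure of -4.71, and Nr4a3 read 6.03, 8.24, 7.15 and 5.96, with -3.41. On the linear scale the departures were -2.47 for Nr4a1, -2.66 for Nr4a2 and -2.61 for Nr4a3. In all 3 receptors DKO lay nearer to WT than either single knockout did, and for Nr4a3 it lay just under WT. Egr1, a zinc finger factor that restrains stem cell cycling and migration, read 8.57, 10.71, 10.24 and 8.53, so DKO differed from WT by -0.04 and the departure was -3.85. The AP-1 subunit genes also had both single knockouts above WT and DKO. Fosb read 8.60, 10.37, 10.20 and 8.79 (-3.17), and Fos read 8.47, 9.50, 9.77 and 8.36 (-2.44). Jun departed less, at 9.92, 10.60, 10.87 and 9.96 (-1.58). Atf3, a stress-induced partner of AP-1, read 6.37, 8.47, 8.59 and 7.42 (-3.27), so its DKO level stayed between WT and the single knockouts.

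Several other regulators in the list lay nearer to the threshold. Zfp36, which destabilises cytokine mRNAs, read 11.49, 12.06, 12.15 and 11.29 (-1.43), and Dusp1, a phosphatase that switches off MAP kinases, read 10.12, 10.60, 10.58 and 9.97 (-1.09). Btg1, an antiproliferative gene, was higher on Foxo3aKO only, at 8.82, 8.89, 9.69 and 8.73 (-1.04). Gadd45b, a stress sensor, was the called member nearest the threshold, at 6.43, 6.98, 7.14 and 6.67 (-1.01). Myc was the exception to the list, at 9.34, 9.27, 8.85 and 9.39, a departure of 0.60. Second probe sets were not uniform: that of Tiparp, a poly(ADP-ribose) polymerase gene outside the list, gave -4.78 beside -3.29, whereas those of Jund gave -0.60 beside -1.74, of Dusp6 -0.82 beside -1.61 and of Socs3 -0.46 beside -3.60. The size for Socs3, a cytokine signalling inhibitor at 4.97, 7.85, 6.22 and 5.50 on its brightest probe set, therefore rests on that probe set.

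**Figure D4:**
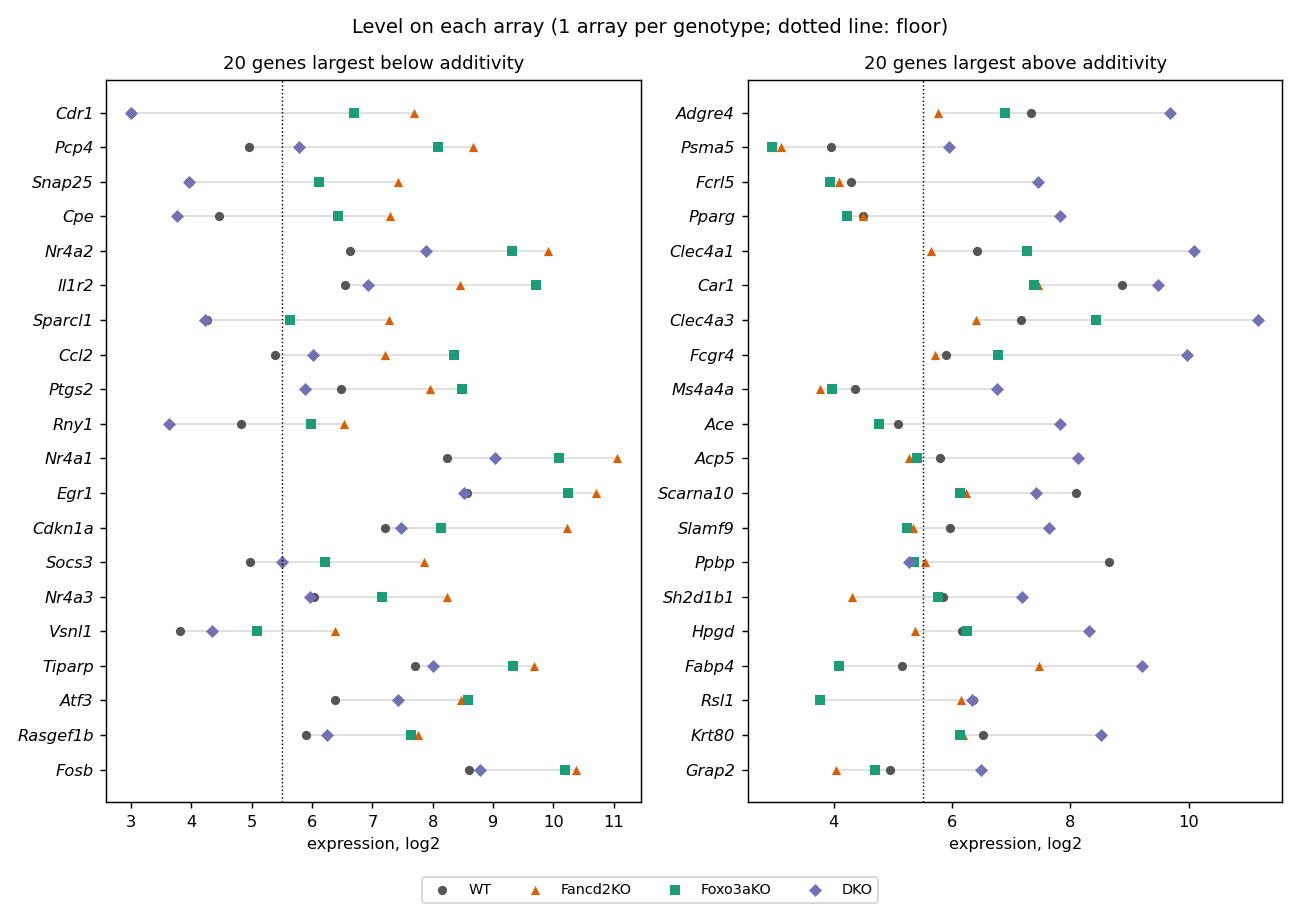
Level in log2 (x axis) on each of the 4 arrays for the 20 named genes with the largest departure in each direction (y axis), 1 symbol per array; the dotted line is the floor at 5.51. On the left both single knockouts lie above WT and DKO for each gene, and on the right DKO is the highest array for every gene except Scarna10, Ppbp and Rsl1.

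Promoters of early genes are shown because these members departed together and because such promoters are known to be driven by inducible factors. RefSeq windows of 300 bases (250 before to 50 after the start, build GRCm38.p6) were available for 9504 of the 12041 genes and for 30 of the 36 members. Both strands were searched for the cAMP response element TGACGTCA, the CArG box, the NF-kB site, the FOXO site GTAAACA, the PU.1 site GAGGAAGT and the interferon-stimulated response element (ISRE). The windows printed belong to members whose window held a match, taken from the lowest departure upwards. A match was thus required for printing. Capitals mark the NF-kB matches, which lay at position -3 from the start in Nr4a1 (chr15:101266596-101266895, plus strand), at -188 in Fosb (chr7:19309996-19310295, minus strand) and at -214 in Fos (chr12:85473640-85473939, plus strand), where the match is on the opposite strand of the gene.
Nr4a1: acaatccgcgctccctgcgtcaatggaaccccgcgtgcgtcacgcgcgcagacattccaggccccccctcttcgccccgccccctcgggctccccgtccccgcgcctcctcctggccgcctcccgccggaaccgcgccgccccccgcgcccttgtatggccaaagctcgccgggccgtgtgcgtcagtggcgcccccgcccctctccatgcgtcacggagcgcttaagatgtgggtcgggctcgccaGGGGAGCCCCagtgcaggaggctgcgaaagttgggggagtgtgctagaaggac
Fosb: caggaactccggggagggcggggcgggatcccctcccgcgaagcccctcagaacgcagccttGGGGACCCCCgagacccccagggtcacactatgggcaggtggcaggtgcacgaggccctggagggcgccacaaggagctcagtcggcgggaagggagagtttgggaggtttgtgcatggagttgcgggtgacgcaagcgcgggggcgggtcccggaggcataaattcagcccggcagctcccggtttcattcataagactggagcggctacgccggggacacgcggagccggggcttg
Fos: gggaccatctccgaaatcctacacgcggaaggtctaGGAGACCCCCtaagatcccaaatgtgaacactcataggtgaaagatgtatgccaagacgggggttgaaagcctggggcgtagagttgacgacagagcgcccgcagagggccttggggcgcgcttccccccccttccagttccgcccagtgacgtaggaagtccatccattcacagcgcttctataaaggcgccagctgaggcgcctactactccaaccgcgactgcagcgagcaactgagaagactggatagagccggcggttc
The NF-kB site was found in 7 of the 30 windows (23.3%) against 12% of all windows, the cAMP response element in 4 (13.3%) against 3.44%, and the CArG box in 3 against 1.65%. The FOXO site was found in 2 of 30, 6.67%, against 3.09%. A match is a description of letters in a window and does not show that a factor binds there.

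Genes known as targets of tumour necrosis factor and NF-kB signalling also lay below additivity, less uniformly. Of 32 listed, 31 were measured and 28 reached the floor; 16 (57.1%) lay at least 2-fold below, against 4.43% of all genes, and 0 above. The median was -1.16. List medians were 6.91 on WT, 7.43 on Fancd2KO, 8.05 on Foxo3aKO and 7.22 on DKO, so the Foxo3aKO array was the highest, unlike the early genes. Il1r2, the interleukin-1 decoy receptor, read 6.55, 8.45, 9.72 and 6.92 (-4.69). Ccl2, a monocyte chemoattractant, read 5.39, 7.21, 8.35 and 6.02 (-4.14), and Ptgs2, the inducible cyclooxygenase, read 6.48, 7.96, 8.49 and 5.89 (-4.08). In each the single knockouts were above both other arrays, and for Ptgs2 the DKO array was the lowest. The tumour necrosis factor gene itself, Tnf, kept part of its difference on DKO, at 6.79, 7.40, 8.25 and 7.56 (-1.30). Core NF-kB regulators were divided. Nfkbia, the inhibitor that NF-kB induces, read 8.64, 8.97, 8.80 and 8.74 (-0.38). Relb, at 5.29, 5.61, 5.50 and 5.84 (0.02), and Nfkb2 (0.44) also lay within 2-fold of additivity. Rel, at 8.42, 9.08, 9.12 and 8.34 (-1.43), lay below, as did Tnfaip3 (-1.73), Nfkbid (-1.36) and Nfkbiz (-1.06). At the upper end Cd83, a maturation antigen, read 5.63, 5.41, 5.34 and 5.94 (0.83). The NF-kB site was found in 13 of the 23 windows available for this list (56.5%), to be read beside the share of all windows given with the early genes. The list was made of known targets, so this share describes the list and not these arrays.

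Among genes known as p53 or FOXO targets a few members departed far, while most lay within 2-fold of additivity. Cdkn1a, the cell cycle inhibitor p21 and a member of both lists, read 7.21 on WT, 10.22 on Fancd2KO, 8.14 on Foxo3aKO and 7.48 on DKO, a departure of -3.67. Its high level was on the Fancd2KO array, and DKO differed from that array by -2.74. Plk2, a stress-induced polo-like kinase, read 6.96, 8.93, 8.61 and 7.75 (-2.82), and Tnfrsf10b, a death receptor, read 5.62, 7.35, 6.39 and 5.79 (-2.32). Mdm2, the ubiquitin ligase that limits p53, was under the threshold at 8.59, 9.06, 9.07 and 8.56 (-0.98). Of 27 p53 targets at the floor, 5 lay below and 0 above, against 4.43% and 3.99% of all genes. On the linear scale 5 of the 27 lay below and 4 above, against 439 and 800 of 11941 genes, so the 1-sided count depends on the scale. The log2 median of the p53 targets was -0.10. It was 0.13 over the 29 measured members with no floor and -0.74 over those whose mean level was at or above the 75th percentile. Without Btg2, which is also an early gene, 4 of 26 lay below. Zmat3 and Phlda3, both p53 targets, leaned the other way at 0.95 and 0.94.

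FOXO targets showed members on both sides. Of 35 at the floor (44 listed, 42 measured), 6 lay below and 2 above, against 4.43% and 3.99% of all genes. The median was -0.08, and 3 of the 6 (Klf2, Klf6 and Gadd45b) are early genes as well. On the linear scale 5 of 35 lay below and 5 above, against 439 and 800 of 11941 genes. S1pr1, which guides exit from tissues, was higher on Fancd2KO alone, at 6.83, 8.30, 7.10 and 6.43 (-2.14), and Irs2, an insulin signalling adaptor, read 6.55, 7.31, 6.40 and 6.07 (-1.09). Txnip, which restrains thioredoxin and glucose uptake, was lower on all knockout arrays, at 11.16, 10.14, 10.35 and 10.57 (1.24), so its DKO level lay closest to WT. Bcl6, a transcriptional repressor, read 7.66, 6.90, 7.74 and 8.04 (1.07). The FOXO site was found in 3 of 29 windows of this list, 10.3%, against 3.09% of all windows.

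The largest negative departure of any gene, and the next 3 among genes that could be named, belonged to transcripts known from neurons. Of 29 listed, 26 were measured and 17 reached the floor; 13 of the 17 lay at least 2-fold below, against 4.43% of all genes, and 8 did with values under the floor raised to it. A dim gene passes the floor only through its highest array, so this count is partly set by the filter. The list was also chosen with earlier results of these data known. Its members Cdr1, Pcp4, Snap25, Cpe, Sparcl1 and Vsnl1 are among the 20 largest negative departures. Over all 26 measured members the median was -1.08, and over the 17 with values under the floor raised to it, -0.97, against -2.62 with values as deposited. List medians over the 26 were 4.55 on WT, 6.36 on Fancd2KO, 5.41 on Foxo3aKO and 4.44 on DKO. Only the Fancd2KO median was above the floor. Cdr1, a cerebellar antigen gene, read 3.0, 7.69, 6.69 and 3.0, a departure of -8.39, or -3.37 with the floor applied. Pcp4, a Purkinje cell calmodulin regulator, read 4.95, 8.67, 8.09 and 5.78 (-6.03; -5.47 with the floor), so that the floor altered it less than Cdr1. Snap25, a synaptic vesicle fusion protein gene, read 3.97, 7.43, 6.11 and 3.96 (-5.62; -2.52 with the floor). In all 3 the single knockouts stood clear of WT and DKO, with Fancd2KO highest. Not every neuronal transcript did so: Camk2a, a synaptic kinase gene, read 6.47, 7.0, 6.49 and 6.33 (-0.69), and Nrgn, which platelets also express, read 7.91, 7.65, 7.73 and 8.30 (0.83). The part of another tissue's RNA in these levels was not tested.

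Many markers of monocytes and macrophages lay above additivity, and DKO was often their highest array. Of 33 markers listed, 31 were measured and 30 reached the floor. Of these, 15 lay at least 2-fold above and 3 below, against 3.99% and 4.43% of all genes. The list was chosen with earlier results of these data known, so this share is not independent of them. Its members Clec4a1, Clec4a3, Fcgr4, Pparg and Ace are among the 20 largest positive departures. The median was 0.99. List medians were 6.84 on WT, 6.59 on Fancd2KO, 7.61 on Foxo3aKO and 8.40 on DKO, and DKO was the highest array for 18 of 30, against 24.4% of all genes. Adgre4, an adhesion G protein-coupled receptor gene of myeloid cells outside the list, had the largest positive departure among genes that could be named, at 7.33, 5.76, 6.89 and 9.69 (4.37); the highest over all genes was 4.96. Its RefSeq promoter (chr17:55749734-55750033, plus strand, GRCm38.p6) is shown with a match to the site of PU.1, the master regulator of myeloid genes, in capitals at position 41 after the start, on the opposite strand.
Adgre4: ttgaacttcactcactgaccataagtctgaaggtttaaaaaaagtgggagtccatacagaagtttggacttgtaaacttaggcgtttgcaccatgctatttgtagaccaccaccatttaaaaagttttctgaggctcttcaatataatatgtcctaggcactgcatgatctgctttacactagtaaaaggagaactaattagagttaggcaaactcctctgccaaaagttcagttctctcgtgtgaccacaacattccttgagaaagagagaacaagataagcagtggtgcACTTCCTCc
The PU.1 site was found in 4 of 24 windows of the marker list, 16.7%, against 3.86% of all windows. Promoters of Cdr1, Pcp4 and Psma5, the other genes of the largest 2 in each direction that could be named, held 0 matches to the motifs searched. Psma5, a proteasome subunit gene, read 3.95, 3.11, 2.96 and 5.95 (3.82), but the departure was 0.44 with the floor and 0.16 on its second probe set.

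Receptors known from patrolling monocytes had wide gaps. Clec4a3, a C-type lectin receptor, read 7.17, 6.40, 8.44 and 11.17 (3.50), and its neighbour Clec4a1 read 6.42, 5.65, 7.27 and 10.09 (3.59); these related genes may share probe sequence. Fcgr4, an activating immunoglobulin G receptor, read 5.90, 5.71, 6.78 and 9.97 (3.38). In these 3 the Foxo3aKO array was already above WT and the Fancd2KO array below it, so the additive expectation lay 0.08 from WT for Clec4a1, 0.50 for Clec4a3 and 0.69 for Fcgr4, and DKO stood far above it. Csf1r, a growth factor receptor gene of macrophages, read 6.85, 6.36, 7.18 and 8.78 (2.08), and Adgre1, a relative of Adgre4 and a classic macrophage antigen, read 6.62, 5.45, 6.86 and 8.39 (2.70). Pparg, a nuclear receptor of lipid-handling macrophages, read 4.50, 4.50, 4.23 and 7.83 (3.60, or 2.32 with the floor), and so was under the floor on every array except DKO. Ace, the angiotensin-converting enzyme gene, behaved alike at 5.09, 4.77, 4.77 and 7.82 (3.37; 2.31 with the floor). Fabp4, a fatty acid binding protein gene and known Pparg target, differed in also being high on Fancd2KO, at 5.16, 7.47, 4.10 and 9.22 (2.81; 1.75 with the floor).

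Some other monocyte markers lay near additivity or below it. Lyz2, the myeloid lysozyme gene, read 12.01, 11.67, 12.31 and 11.77 (-0.20), and Ly6c2, the antigen of inflammatory monocytes, read 11.64, 11.02, 12.10 and 11.26 (-0.22). Ccr2, the receptor for Ccl2, read 7.84, 7.12, 8.21 and 7.04 (-0.44). F13a1, a transglutaminase gene of the same monocytes, lay below at 7.88, 7.40, 9.05 and 6.67 (-1.91), as did Cd14, the lipopolysaccharide co-receptor, at 5.52, 6.56, 6.75 and 5.73 (-2.06), and Nr4a1, given above. The markers thus did not depart as a block, and among those whose mean level was at or above the 75th percentile of gene values the median was 0.14. Neutrophil markers leaned the other way, with a median of -0.44. Of 22, 5 lay below and 0 above, against 4.43% and 3.99% of all genes. Olfm4, a granule protein gene, was high on Foxo3aKO alone at 7.20, 7.26, 9.46 and 7.0 (-2.53). Whether numbers of contaminating or differentiating cells differed between arrays was not tested.

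Erythroid genes lay above additivity, mostly with both single knockouts under WT. Of 21 listed, 13 were measured and 12 reached the floor. Of these, 5 (41.7%) lay at least 2-fold above and 0 below, against 3.99% and 4.43% of all genes. The median was 0.96. List medians were 6.98 on WT, 6.32 on Fancd2KO, 6.29 on Foxo3aKO and 6.98 on DKO, and both single knockouts lay below WT and DKO in 8 of 12, against 18.2% of all genes. Car1, an erythroid carbonic anhydrase gene, read 8.87, 7.45, 7.39 and 9.48 (3.51). Rhag, the Rhesus-associated glycoprotein gene, read 6.36, 5.89, 5.65 and 7.56 (2.38), and Ermap, a red cell membrane protein gene, read 7.18, 6.33, 6.12 and 6.94 (1.67). Klf1, the erythroid master factor, was instead lower on all knockout arrays, at 6.51, 5.84, 6.06 and 5.59 (0.20). The GC-rich background probe sets had a departure of 0.65 in the same direction, and its part in these values was not tested.

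Replication-dependent histone genes, whose transcripts lack poly(A) tails, had a median departure of 0.94 over the 8 of 11 measured members that reached the floor. Of these, 3 lay above and 0 below, against 3.99% and 4.43% of all genes. H1f5, a linker histone gene, read 11.80, 10.92, 10.38 and 10.75 (1.26), and H1f1 read 7.92, 6.77, 5.91 and 5.89 (1.14). In both, WT was the highest array and the knockouts were lower without adding up. H1f2 was the exception at 9.84, 9.53, 9.10 and 8.20 (-0.59). Genes of this family have closely related copies, and their single values are uncertain. Scarna10, a small Cajal body RNA, had the same form at 8.10, 6.24, 6.13 and 7.43 (3.16), as had Ppbp, the platelet basic protein gene, at 8.66, 5.55, 5.37 and 5.27 (3.01). Ppbp on the knockout arrays lay close to the floor, where differences carry little order. Its additive expectation differed from WT by -6.40 log2, far under the floor, and it had no value on the linear scale. An additive DKO level could not have been seen, so the size of its departure is not informative. Its DKO level was also its lowest, whereas DKO of Scarna10 lay above both single knockouts.

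Type I interferon response genes departed little, and more often upwards. Of 41 listed, 37 were measured and 36 reached the floor; 29 had a departure above 0, against 52.8% of all genes, 6 were below 0 and Trim30a was at 0. At the threshold, 4 (11.1%) lay at least 2-fold above, against 3.99% of all genes, and 0 below. The median was 0.46. List medians were 7.93 on WT, 7.41 on Fancd2KO, 7.43 on Foxo3aKO and 7.64 on DKO. Both single knockouts lay below WT and DKO in 16 of 36, against 18.2% of all genes. Irgm2, an immunity-related GTPase gene, read 8.80, 7.39, 8.10 and 8.85 (2.17), so DKO differed little from WT. Usp18, which removes ISG15 from proteins, read 7.44, 6.73, 6.26 and 7.05 (1.51), and Rtp4 read 8.86, 8.02, 7.67 and 8.28 (1.45). Lgals3bp, a secreted glycoprotein gene, read 10.29, 10.04, 9.28 and 10.18 (1.16), and its second probe set gave 1.03. Members near additivity included Ifitm3, an antiviral membrane protein gene, at 11.48, 11.64, 11.65 and 11.58 (-0.23). The median was smaller than the 0.65 of GC-rich background probe sets, whose part was not tested. The Irgm2 promoter (chr11:58214727-58215026, plus strand, GRCm38.p6) is shown with its ISRE match in capitals at position -64. It was chosen after the values were seen, as the member with the largest departure whose window held an ISRE match.
Irgm2: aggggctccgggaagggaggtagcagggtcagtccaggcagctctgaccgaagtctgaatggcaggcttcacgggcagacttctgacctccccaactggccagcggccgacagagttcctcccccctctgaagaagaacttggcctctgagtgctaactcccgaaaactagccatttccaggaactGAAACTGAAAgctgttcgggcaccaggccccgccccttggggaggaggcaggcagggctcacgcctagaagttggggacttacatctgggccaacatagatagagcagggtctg
The ISRE was found in 17 of 27 windows of the list, 63.0%, against 3.86% of all windows.

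Genes of DNA repair, growth and metabolism mostly lay within 2-fold of additivity. For each count here, the shares over all genes were 3.99% above and 4.43% below. Of the 27 Fanconi anaemia and homologous recombination genes 0 were past 2-fold (median -0.01); the widest were Fancb, a core complex gene, at 5.80, 4.90, 5.22 and 5.31 (0.99), and Fancm, a fork remodelling gene, at 6.68, 6.98, 6.81 and 6.62 (-0.48). The same count of 0 held for 42 DNA replication genes (median -0.05), 33 mitosis genes (0.01), 53 respiratory chain genes (-0.06) and 51 cytosolic ribosomal protein genes (0.04). Mki67, the proliferation antigen, read 9.80, 9.79, 9.89 and 9.69 (-0.19). Of 21 antioxidant genes 1 lay on each side: Hmox1, haem oxygenase, was highest on DKO at 7.63, 7.87, 7.62 and 8.87 (1.01), and Glrx, glutaredoxin, read 8.15, 8.42, 9.05 and 8.09 (-1.24). Of 29 autophagy genes 1 was called, Map1lc3a, at 5.70, 6.45, 6.24 and 5.95 (-1.04). Glycolysis and hypoxia genes had 3 of 22 below, led by Vegfa, the angiogenic growth factor gene, at 7.13, 8.83, 7.61 and 7.17 (-2.14). Heat shock genes had 3 of 14 below, led by Hspa1b at 7.85, 8.55, 9.87 and 8.77 (-1.80), which shares near-identical sequence with Hspa1a.

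**Figure D5:**
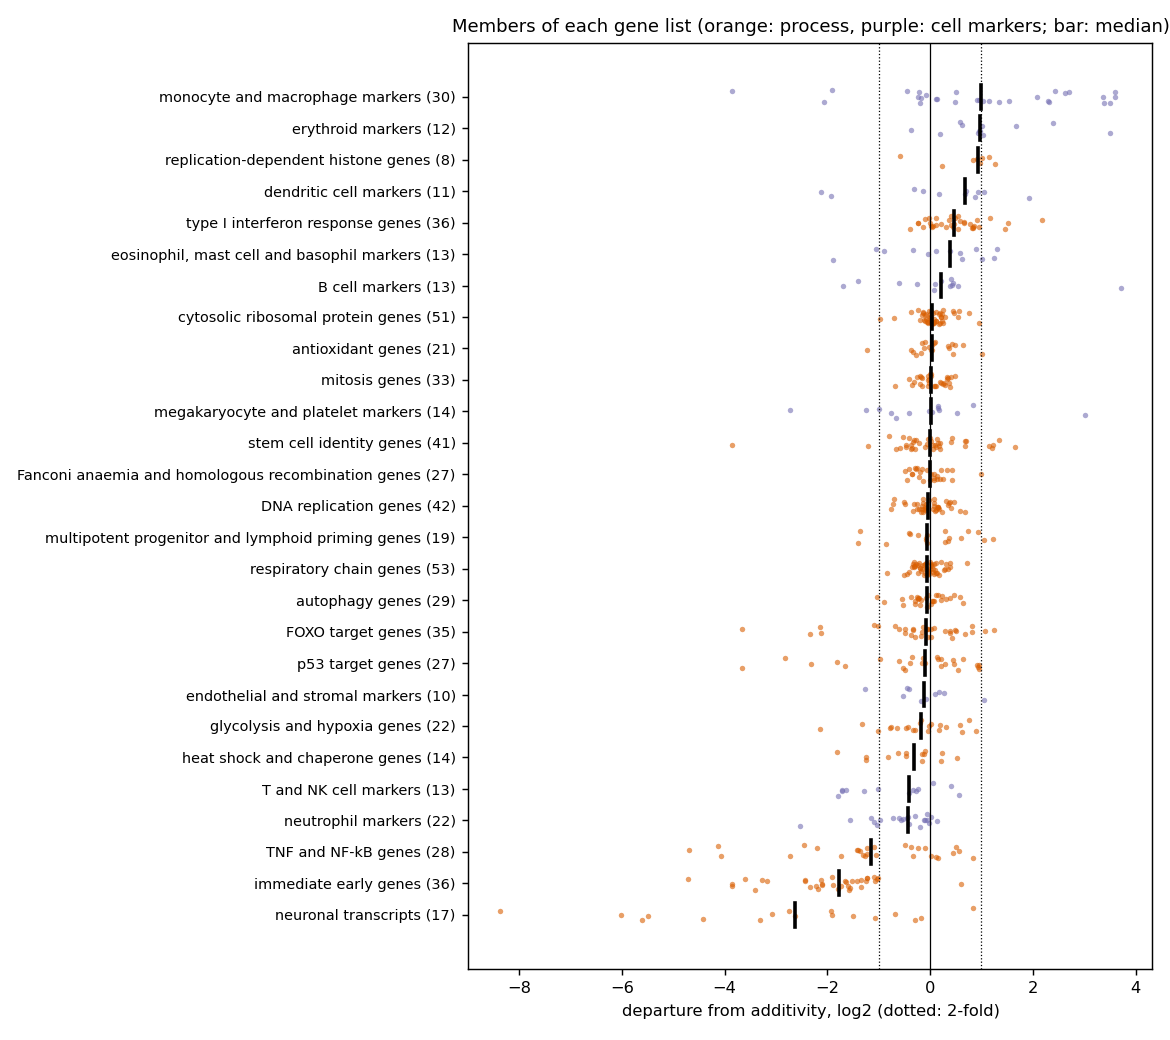
Departure from additivity in log2 (x axis) of each member at the floor, for each gene list (y axis, number of members in brackets), 1 point per gene with a bar at the median and dotted lines at 2-fold. Immediate early genes (median -1.77) and neuronal transcripts (-2.62) lie to the left, monocyte and erythroid markers (0.99 and 0.96) to the right, and replication, mitosis and ribosomal protein genes crowd around 0.

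Stem cell identity genes had 5 of 41 members above, against 3.99% of all genes, and 2 below, which is near the 4.43% of all genes, and their median was nearer to 0 than that of all genes. Mycn, a proto-oncogene of stem and progenitor cells, read 6.10, 5.62, 5.34 and 6.51 (1.64), and Hoxb4, a self-renewal factor, read 7.68, 6.70, 6.58 and 6.95 (1.35). Gata2, a factor required for stem cell survival, was lower on Foxo3aKO only, at 9.13, 8.96, 8.20 and 9.17 (1.14), and Gfi1b, a repressor of stem cell cycling, had a like order at 8.54, 8.24, 7.79 and 8.70 (1.22). Besides Egr1, Socs2 lay below at 6.03, 7.90, 6.85 and 7.50 (-1.22), though its second probe set gave -0.11. Slamf1, which encodes CD150, was highest on Fancd2KO at 7.25, 8.36, 7.51 and 7.81 (-0.81), and Cd48 was highest on DKO at 8.17, 7.50, 8.13 and 8.68 (1.22). Mecom, a factor of long-term stem cells, lay near additivity at 8.56, 8.97, 8.72 and 8.75 (-0.37), as did Meis1 at 10.50, 10.23, 10.07 and 9.93 (0.14).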

How the data were processed

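RNA of sorted marrow cells was measured on 4 arrays, 1 per genotype. The authors deposited 1 table of log2 expression values for 41345 probe sets, and the submitters' processing notes name Affymetrix Expression Console. Its version and settings, scan dates and filters: not given in the sources used here. Sorted array values never left their common mean by more than 0.0889 log2, so they were used as deposited. In the platform annotation 23521 probe sets had 1 symbol; 16010 had no listed gene and 1814 had several. RefSeq's table for GRCm38.p6 held the Entrez identifiers of 23328, with 0 differing symbols. The probe set with the highest mean represented its gene, and a gene was used when its highest value reached the median of all gene values. Related genes can share probes.

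Python 3.11.15 with pandas 2.3.3 and numpy 2.4.6 computed the departures, and limma 3.58.1 in R 4.3.3 the quantile and cyclic loess alternatives; the code was first tested on made-up data with known answers. No genotype was replicated, so the number of arrays limits the precision and no test was made. The members, the gene lists and the alternatives were chosen with earlier results of these data known. Named genes were Fancd2, Foxo3, the 20 largest departures in each direction, the 3 largest of each list in each direction and the 5 largest of each plain form; further members are named for their role and were chosen after their values were seen. Predicted genes, pseudogenes, small RNAs of the Mir, Snor, n-R and Rnu families, chemosensory receptors and antigen receptor segments, 1174 genes in all, were counted and not named. Promoter sequences are RefSeq's (GRCm38.p6).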

Additional observations from a re-analysis of the deposited data

Results flagged for a closer look

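The effect of a loss had opposite directions on the 2 backgrounds in some genes. Fancd2 loss was at least 2-fold higher with Foxo3a intact and at least 2-fold lower without it in 37 genes, and the reverse in 16. Foxo3a loss was at least 2-fold higher with Fancd2 intact and lower without it in 42 genes, and the reverse in 11. None of these differences was tested, since each rests on 4 single arrays.

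Several lists also had median effects of opposite sign on the 2 backgrounds, again untested. For each gene the effects of a loss on the 2 backgrounds differ by its departure, so these values restate departures already described. Immediate early genes differed by 0.98 for Fancd2 loss with Foxo3a intact and by -0.82 with it absent, and by 0.88 and -0.99 for Foxo3a loss with Fancd2 intact and absent. In the same order, TNF and NF-kB genes differed by 0.32 and -0.61 for Fancd2 loss and by 0.70 and -0.25 for Foxo3a loss. Neuronal transcripts differed by 1.52 and -0.75, and by 0.79 and -1.86, respectively, over the 17 members at the floor, a set partly fixed by the filter. Erythroid markers had the opposite order of signs, at -0.52 and 0.41 for Fancd2 loss and -0.60 and 0.44 for Foxo3a loss. Monocyte and macrophage markers differed by -0.40 and 0.69 for Fancd2 loss.

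Probe sets with no listed gene, which enter no comparison above, departed more often than named genes: of 7835 at the floor, 12.2% lay at least 2-fold above additivity and 18.9% below. Among 1171 probe sets with several symbols the shares were 6.4% and 7.94%.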

How the results depend on the processing

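Normalisation, floor, probe set rule, threshold and scale were varied one at a time, and 677 values were recomputed: 600 stayed within the limits set, 77 moved and 0 changed sign after being called. List medians within 0.25 of 0 were not called, and several of these changed sign. Quantile normalisation, median centring, cyclic loess and centring within bins of mean level gave 431 to 530 genes above additivity and 504 to 586 below. The counts above were 140 when the mean level had to reach the 75th percentile, 32 with the second brightest probe set, 1631 at 1.5-fold, 72 at 4-fold and 800 on the linear scale; the counts below were 191, 31, 1365 and 101 under the first 4 of these. With the 75th percentile and the second probe set, the DKO alone higher form held 11 and 4 genes, the form with both single knockouts lower and DKO near WT 37 and 6, and its mirror image 59 and 7; a 2-fold limit left 22 and 56 in the last 2, no longer the commonest forms. Fewer genes enter under both settings.

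List medians that moved were as follows. On the linear scale they were -1.45 for immediate early genes, -0.89 for TNF and NF-kB genes, -2.09 for neuronal transcripts, 0.52 for B cell markers and 0.22 for progenitor genes. With no floor they were 0.13 for p53 targets, 0.28 for progenitor genes, -1.08 for neuronal transcripts and 0.31 for dendritic cell markers. With values raised to the floor they were 0.28 for progenitor genes and -0.97 for neuronal transcripts. At the 75th percentile they were -0.74 for p53 targets, 0.28 for progenitor genes, 0.14 for monocyte markers, 0.12 for eosinophil, mast cell and basophil markers, -0.34 for megakaryocyte markers and 0.17 for dendritic cell markers. The mean of all probe sets gave 0.37 for dendritic cell markers, and the second probe set -0.46 for stem cell identity genes. The cause was not tested.

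Of 346 recomputed values of named genes 41 moved. Among the 20 largest below additivity, 6 were smaller by over 1.5 times on the linear scale, Cdr1 (-5.24), Pcp4 (-3.56), Nr4a2 (-2.66), Ccl2 (-2.73), Nr4a1 (-2.47) and Atf3 (-1.94), and 6 with the floor, with 1 of them, Vsnl1 (-0.87), no longer 2-fold. Among the 20 largest above, 8 were smaller by over 1.5 times with the floor, and Psma5 (0.44) and Grap2 (0.99) were no longer 2-fold; on the linear scale Psma5 (5.99) and Rsl1 (5.17) were larger by that much, and 3 had no value. The interferon median ranged from 0.43 to 0.50 and the erythroid median from 0.89 to 1.23. Removing shared early genes, an alternative chosen after seeing the data, left 3 of 32 FOXO targets below.

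No paired analysis was possible because each genotype has 1 array, and for the same reason no replicate was left out.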

Other observations

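Granulocyte genes outside the neutrophil lineage had members on both sides of additivity. Of 13 eosinophil, mast cell and basophil markers at the floor (19 measured), 3 lay at least 2-fold above additivity and 2 below, against 3.99% and 4.43% of all genes, with a median of 0.39. Epx, eosinophil peroxidase, was lower on every knockout array and read 9.62 on WT, 6.92 on Fancd2KO, 7.82 on Foxo3aKO and 6.35 on DKO (1.24), and Alox15, a lipoxygenase gene, read 9.06, 6.72, 7.87 and 6.84 (1.31). On the linear scale Epx and Alox15 had no value, because their additive sums were not positive. Of the 8 markers with a value there, 1 lay above and 3 below, against 800 and 439 of 11941 genes. The direction of the counts thus depends on the scale. Prg3, an eosinophil granule protein gene, was also lower on every knockout array but lay nearer additivity, at 9.88, 7.84, 8.73 and 6.35 (-0.34). The basophil protease gene Mcpt8 was highest on Foxo3aKO and lowest on DKO, at 8.53, 7.60, 9.39 and 6.56 (-1.89), whereas Cpa3, a mast cell carboxypeptidase gene, read 7.49, 6.36, 7.76 and 7.21 (0.58).

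Lymphoid and dendritic cell genes had members on both sides. For each list here, the shares over all genes were 3.99% above and 4.43% below. T and NK cell markers had 6 of 13 below, against 4.43% of all genes, and 0 above, and 3 of 13 lay below with values under the floor raised to it; Cd3d, a T cell receptor subunit gene, was highest on Foxo3aKO at 6.40, 6.89, 8.64 and 7.40 (-1.73), while Gzma, a killer cell granzyme gene, was low on DKO at 5.47, 4.97, 5.56 and 3.42 (-1.64, or -0.06 with the floor). Of 13 B cell markers, 1 lay above and 2 below; Fcrl5, an Fc receptor-like gene, read 4.30, 4.08, 3.94 and 7.45 (3.72; 1.94 with the floor), and Igll1, the surrogate light chain gene, read 5.94, 6.85, 5.66 and 4.87 (-1.70; -1.06 with the floor). Of 11 dendritic cell markers, 2 lay on each side: Itgax, which encodes CD11c, was highest on DKO at 4.73, 4.62, 5.28 and 7.10 (1.93), and Siglech, a plasmacytoid lectin gene, was highest on Foxo3aKO at 5.68, 5.63, 6.99 and 4.81 (-2.13). Of 14 megakaryocyte and platelet markers, 1 lay above and 2 below; Thbs1, thrombospondin, was high on Foxo3aKO alone (departure -2.73), and Selp, P-selectin, on Fancd2KO at 6.72, 8.27, 6.78 and 7.07 (-1.26). Of 19 multipotent progenitor and lymphoid priming genes, 2 lay on each side, and Flt3, the cytokine receptor of that stage, was lower on every knockout array at 8.97, 7.34, 7.37 and 6.67 (0.93). Endothelial and stromal markers had 1 of 10 on each side, among them Sparc, a matrix protein gene, at 5.17, 6.49, 5.22 and 5.28 (-1.27; -0.98 with the floor).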
